A study of Homo sapiens with 3 samples.

Results

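The mRNAs of 9 RNA-binding proteins that control mRNA stability and have been linked to leukaemia were followed in a DDX6 eCLIP experiment: IGF2BP2, IGF2BP3, MSI2, ELAVL1, KHSRP, YBX1, FXR1, SYNCRIP and UPF1. They were taken by gene name and are 9 of 36817 gene identifiers in the tables. All 9 had enough exonic reads to be tested. The libraries came from MOLM-13, an established human acute myeloid leukaemia line grown without any treatment named in the labels. The 2 immunoprecipitation (IP) libraries were made with an antibody against the RNA helicase DDX6, and the 1 input library was made without one. In eCLIP, ultraviolet light links RNA to the proteins it touches, RNase I shortens the RNA, the protein of interest is pulled down and the attached fragments are sequenced.

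DDX6 is a cytoplasmic helicase that represses translation, assists mRNA decapping and is required for P-bodies, the granules in which untranslated mRNA is kept. The 9 proteins act on mRNA from several sides. IGF2BP2 and IGF2BP3 read methylated adenosine and protect their targets, and MSI2 (Musashi-2) controls translation in blood stem cells and myeloid leukaemia. ELAVL1 (HuR) stabilises mRNAs with AU-rich elements, whereas KHSRP (KSRP) recruits decay enzymes to them. YBX1 coats mRNA through a cold shock domain, FXR1 belongs to the fragile X family of translational regulators, SYNCRIP (hnRNP Q) binds mRNA in the cytoplasm and supports MLL-rearranged leukaemia, and UPF1 is the central helicase of nonsense-mediated decay. The experiment measured which of their own transcripts, and which stretches of those transcripts, were recovered with DDX6.

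The tables counted 4643494 reads in IP replicate 1, 1244213 in IP replicate 2 and 7807540 in the input. Values of IP replicate 2 are therefore the least precise. Nothing in the labels says that the IP libraries came from separate cultures. The p-values thus reflect library to library spread alone, part or all of which may be technical. In the exonic and region fits that spread was mostly pooled over all genes or regions, so a gene's own replicate difference weighed little. The tables hold no mock IP, so RNA bound by DDX6 and RNA carried along without it cannot be told apart. All 10 markers of a myeloid leukaemia line had input reads, from FCGR1A (17 exonic reads) to LYZ (1875), with a summed level of 1980.8 CPM (exonic counts scaled to a common library total) in the input and of 1778.5 and 1918.6 CPM in the first and the second IP library. Among markers of other lineages, CD3E, MS4A1 and EPCAM had 0 input reads, HBA1 had 3 and COL1A1 had 27.

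Over the whole spliced transcript, FXR1 was higher in the DDX6 IP, MSI2, IGF2BP2 and KHSRP were lower, and the other 5 did not pass the test, though IGF2BP2, MSI2 and KHSRP turned to positive folds when libraries were scaled to their total gene reads. Exonic reads (coding sequence, UTRs and noncoding exons) are given from here on as TMM-scaled CPM, where TMM sets the typical gene to no difference. Calls were made by quasi-likelihood in edgeR, with an adjusted p (Benjamini-Hochberg, over all genes) under 0.05. In that fit 16.7% of 10392 genes were higher in the IP and 11.4% lower, so 1 higher and 3 lower of 9 has to be read against those shares. The median log2 fold of the 9 was -0.16, beside 0.003 for all genes. With DESeq2 none of the 9 was called, and 1 higher and 0 lower had an unadjusted p under 0.05. DESeq2 called 6.53% of all genes higher and 2.46% lower. With a fit of all genes that had at least 1 read, none was called either, beside 4.91% of genes higher and 3.58% lower, and 1 higher and 3 lower had an unadjusted p under 0.05.

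**Figure D1:**
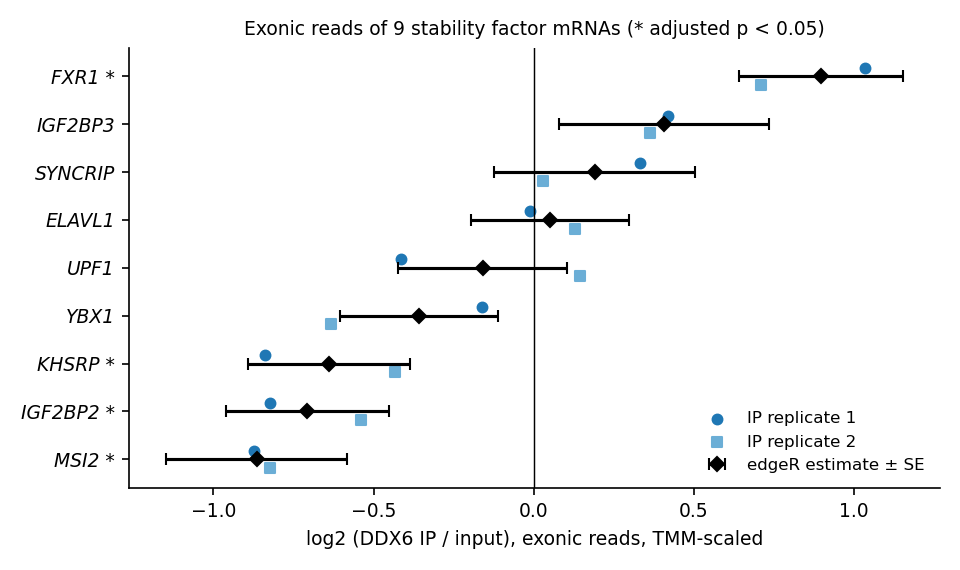
Log2 fold of exonic reads, DDX6 IP over input, for the 9 mRNAs (x axis, TMM-scaled). Circles and squares are IP replicates 1 and 2, diamonds the edgeR estimate with its SE, and stars an adjusted p under 0.05. FXR1 lies at the top (0.90) and MSI2 at the bottom (-0.86). With library-size scaling all 9 estimates are above 0, MSI2 lowest at 0.39.

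MSI2 (ENSG00000153944.6) stood at 51.2 and 53.0 CPM in the IP libraries and at 94.5 CPM in the input. Both IP libraries were lower than the input and nearly equal to each other. MSI2 was 1.82-fold lower (log2 fold -0.86, SE 0.28, edgeR adjusted p = 0.0151). Over its alternatives the edgeR adjusted p ran from 4.87e-05 (introns added, log2 fold -1.03) to 0.282 (library-size scaling, log2 fold 0.39). IGF2BP2 (ENSG00000073792.11) had 79.6 and 97.2 CPM in the IP libraries and 141.6 CPM in the input. It too was lower in both, by 1.63-fold (log2 fold -0.71, SE 0.25, edgeR adjusted p = 0.0283, range over alternatives 2.46e-09 to 0.313). The low end of that range came with introns added (log2 fold -1.54) and the high end with DESeq2 (-0.71), while library-size scaling gave 0.55. Its relative IGF2BP3 (ENSG00000136231.9) lay on the other side, with 49.97 and 47.95 CPM in the IP and 37.1 CPM in the input. At 160, 38 and 82 reads its log2 fold of 0.41 was not called (SE 0.33, edgeR adjusted p = 0.38). Whether the folds of IGF2BP2 and IGF2BP3 differ was not tested.

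ELAVL1 and KHSRP act on AU-rich mRNAs, and the difference between their folds was not tested. ELAVL1 (ENSG00000066044.9), the stabiliser, had 145.2 and 160.3 CPM in the IP libraries and 146.6 CPM in the input, which lies between them. Its log2 fold was 0.05 (SE 0.25, edgeR adjusted p = 0.907). KHSRP (ENSG00000088247.11), the decay factor, had 231.1 and 306.6 CPM in the IP and 414.4 CPM in the input. Both IP libraries were below the input, by 1.56-fold together (log2 fold -0.64, SE 0.25, edgeR adjusted p = 0.048), a call close to the threshold that was lost among genes with at least 30 reads (-0.72, edgeR adjusted p = 0.061) and with introns added (0.32). The edgeR adjusted p of KHSRP ran from 0.0173 (coding and 3'UTR reads only, log2 fold -0.72) to 0.286 (introns added, log2 fold 0.32) over its alternatives.

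FXR1 (ENSG00000114416.13) rose from 154.7 CPM in the input to 317.6 and 253.6 CPM in the IP libraries. Both IP libraries lay above the input, and their mean was 285.6 CPM ± 45.2 (SD, n = 2). The fitted fold of FXR1 was 1.86 (log2 fold 0.90, SE 0.26, edgeR adjusted p = 0.00488). Over alternatives the adjusted p ran from 2.44e-08 (edgeR, library-size scaling) to 0.0892 (DESeq2). SYNCRIP (ENSG00000135316.13) had 1100.9 and 892.1 CPM in the IP and 874.8 CPM in the input, a log2 fold of 0.19 (SE 0.31, edgeR adjusted p = 0.696). IP replicate 1 was above the input and IP replicate 2 was close to it. YBX1 (ENSG00000065978.13) had 274.8 and 198.1 CPM in the IP and 307.6 CPM in the input (log2 fold -0.36, SE 0.25, edgeR adjusted p = 0.29). UPF1 (ENSG00000005007.8) had 81.8 and 121.1 CPM in the IP on either side of 109.5 CPM in the input (log2 fold -0.16, SE 0.26, edgeR adjusted p = 0.698). For YBX1 both IP libraries were lower, and for UPF1 they fell on opposite sides.

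Transcript regions were counted apart in a separate fit. Its TMM scaling ran over exonic and intronic regions together, so its folds have another zero and do not add up to the exonic folds above. UPF1, for example, had log2 folds of 0.89 in coding sequence and -0.21 in the 3'UTR, but an exonic one of -0.16. The median coding log2 fold was 0.89 for the 9 genes and 1.02 for all coding regions tested. Counted by region, coding sequence of 6 of the 9 genes was higher in the IP, the 3'UTR of 2 was higher and of 3 lower, and introns of all 9 were lower, in 1 edgeR fit over 28825 gene regions scaled together. The share of all tested genes called was 51.2% for higher coding sequence, 23.9% for higher and 6.83% for lower 3'UTR, and 83.0% for lower introns. DESeq2 called 2 of the 9 coding regions higher, 1 3'UTR higher and 0 lower (0 lower also at an unadjusted p under 0.05), and 8 introns lower. It called 26.9% of all coding regions higher, 10.5% of 3'UTRs higher and 0.945% lower, and 58.9% of introns lower. With library-size scaling all 9 coding regions and 4 3'UTRs were called higher, 0 3'UTRs lower (0 also at an unadjusted p under 0.05) and 8 introns lower, beside 79.2%, 46.8%, 0.987% and 67.2% of all genes.

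**Figure D2:**
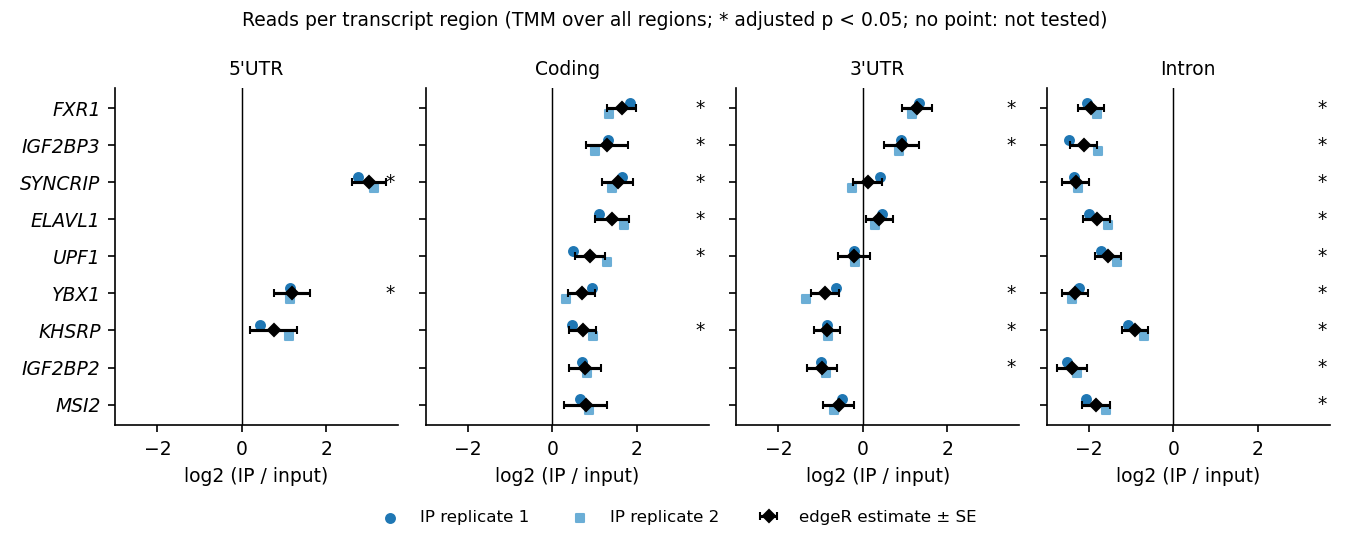
Log2 fold, DDX6 IP over input, of reads in the 5'UTR, coding sequence, 3'UTR and introns of the 9 mRNAs. Circles and squares are IP replicates 1 and 2, diamonds the edgeR estimate with its SE, stars an adjusted p under 0.05, and regions with too few reads have no point. Coding estimates lie between 0.69 and 1.64 and intron estimates between -2.40 and -0.91, while 3'UTR estimates run from -0.97 (IGF2BP2) to 1.28 (FXR1). With library-size scaling the 3'UTR estimates of MSI2 (0.08) and UPF1 (0.45) turn positive.

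Coding sequence was highest over input for FXR1, SYNCRIP and ELAVL1. FXR1 had 147.5 and 104.7 CPM (here over the reads of all regions, TMM-scaled) in the IP and 40.9 CPM in the input, 3.12-fold more (log2 fold 1.64, SE 0.34, edgeR adjusted p = 6.6e-06). SYNCRIP had 313.1 and 262.6 CPM in the IP and 99.0 CPM in the input, 2.91-fold (log2 fold 1.54, SE 0.36, edgeR adjusted p = 6.25e-05). These 2 coding regions were also called under each alternative that gave a test (library-size scaling, DESeq2 and both other read filters). ELAVL1 had 23.5 and 36.0 CPM in the IP and 10.7 CPM in the input, 2.67-fold (edgeR adjusted p = 0.0011, range over alternatives 2.28e-06 to 0.0522, the last with DESeq2). IGF2BP3 (log2 fold 1.29), UPF1 (0.89) and KHSRP (0.72) also passed, KHSRP at an edgeR adjusted p of 0.0492. The coding regions of MSI2 (0.78), IGF2BP2 (0.77) and YBX1 (0.69) missed the threshold, with edgeR adjusted p of 0.182, 0.0631 and 0.0573. In each of the 9 genes both IP libraries lay above the input.

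The 3'UTR divided the group. For FXR1 it was higher by 2.44-fold, with 57.0 and 50.8 CPM in the IP and 22.3 CPM in the input (edgeR adjusted p = 0.000716). For IGF2BP3 it was higher by 1.89-fold, with 18.7 and 17.98 CPM in the IP and 9.71 CPM in the input (edgeR adjusted p = 0.0482, range over alternatives 0.000503 to 0.412, lost with DESeq2 and with the filter of 1 read). It was lower for IGF2BP2, with 19.3 and 21.1 CPM in the IP and 39.0 CPM in the input. The 3'UTRs of KHSRP and YBX1 were lower too, at log2 folds of -0.84 and -0.90. These 3 lower calls had edgeR adjusted p of 0.0132, 0.0133 and 0.0123, and they ended with DESeq2 and with library-size scaling, that of KHSRP also among regions with at least 30 reads. The 3'UTRs of ELAVL1 (0.39), SYNCRIP (0.12), UPF1 (-0.21) and MSI2 (-0.58) did not pass. For SYNCRIP the replicates disagreed in sign, at 0.41 and -0.27.

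YBX1, KHSRP and SYNCRIP had enough 5'UTR reads to test (at least 10 in at least 2 libraries), and 2 of the 3 were higher, beside 33.2% of the 2025 5'UTRs tested. The SYNCRIP 5'UTR had the largest fold of any region tested in the 9 genes. It held 273 and 93 reads in the IP libraries and 41 in the input, or 55.4, 72.7 and 7.81 CPM. This 8.04-fold rise (log2 fold 3.01, SE 0.40, edgeR adjusted p = 2.01e-12) stood above 95.2% of all tested 5'UTRs, with log2 folds of 2.75 and 3.14 in the replicates. Over its alternatives the adjusted p of this 5'UTR ran from 1.14e-16 to 5.26e-07. YBX1 had 19.7 and 19.5 CPM in the IP and 8.57 CPM in the input, 2.29-fold (edgeR adjusted p = 0.00986, range over alternatives 5.39e-05 to 0.162, lost with DESeq2 and with the filter of 1 read). KHSRP had 6.09 and 10.2 CPM in the IP and 4.38 CPM in the input and did not pass (edgeR adjusted p = 0.243). The remaining 5'UTRs held 10 reads or fewer in every library.

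Shares of each gene's own reads need no scaling between libraries, but they move with the intron share. The 3'UTR of IGF2BP2, lower by fold, took 8.13% and 7.52% of the gene's reads in the IP libraries and 3.46% in the input, and that of MSI2 took 16.5% and 11.4% against 6.79%. In SYNCRIP the 5'UTR took 7.05% of reads in IP replicate 1 (95% exact Clopper-Pearson interval 6.26 to 7.90), 11.6% in IP replicate 2 (9.44 to 14.0) and 1.07% in the input (0.767 to 1.44). Its coding sequence took 39.8% and 41.8% of IP reads and 13.5% of input reads, and its introns 8.99% and 12.1% against 49.7%. These intervals cover counting error only. In FXR1 coding sequence took 59.3% and 50.6% of IP reads and 16.9% of input reads. In YBX1 it took 58.1% and 53.3% against 22.3%, and the YBX1 5'UTR took 9.30% and 12.8% against 2.97%.

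Intron shares were largest in IGF2BP2, IGF2BP3 and MSI2. In the input 94.7% of IGF2BP2 reads, 95.4% of IGF2BP3 reads and 91.8% of MSI2 reads were intronic. Introns also held most input reads of UPF1 (76.2%), FXR1 (73.2%), ELAVL1 (63.3%) and YBX1 (55.1%). In the IP libraries introns still held 78.2% and 78.6% of IGF2BP2 reads, 64.0% and 75.8% of IGF2BP3 reads and 76.1% and 81.6% of MSI2 reads. Mature-transcript reads of these genes were thus a minority in every library, and adding introns to the gene sum changed their folds. IGF2BP3 went from 0.41 to -1.10 (edgeR adjusted p = 1.13e-05 with introns), IGF2BP2 from -0.71 to -1.54 and MSI2 from -0.86 to -1.03. For exonic reads alone IGF2BP3 had a DESeq2 adjusted p of 0.757 (log2 fold 0.39). The sum with introns was not refitted under the other alternatives. KHSRP had the lowest intron share of the 9 in the input, 31.7%, with 20.3% and 20.8% in the IP libraries, where SYNCRIP was lowest. KHSRP also had the smallest intron fold (log2 fold -0.91, edgeR adjusted p = 0.00879, range over alternatives 0.00217 to 0.495), and its intron call was the one lost with DESeq2 and with library-size scaling (-0.25). Its reads in distal introns numbered 4, 0 and 16. The other 8 intron folds ran from -1.55 (UPF1) to -2.40 (IGF2BP2). The median of the 9 was -1.96, beside -1.93 for all introns tested.

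**Figure D3:**
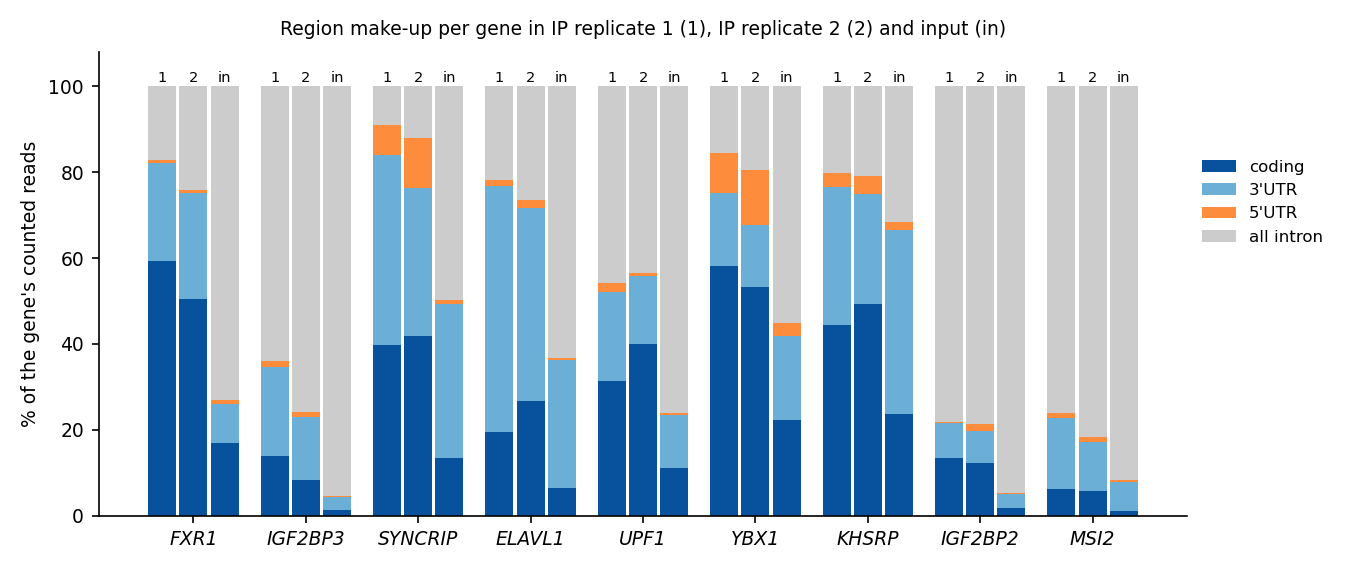
Share of each gene's counted reads (y axis, percent) in coding sequence, 3'UTR, 5'UTR and introns, for IP replicate 1 (1), IP replicate 2 (2) and the input (in). Intron shares are smaller in both IP libraries than in the input for all 9 genes, and the 5'UTR share of SYNCRIP reaches 7.05% and 11.6% in the IP libraries against 1.07% in the input.

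Coding reads gained on 3'UTR reads in 7 of the 9 genes. The number of coding reads per 3'UTR read was compared between IP and input within each gene, in an edgeR fit with a term for each library, so that scaling between libraries cancels. A higher ratio was called for 29.7% of 6552 genes. The median log2 change was 1.34 over the 9 genes and 0.82 over all genes. IGF2BP2 had 1.65 and 1.63 coding reads per 3'UTR read in the IP libraries and 0.493 in the input, a 3.33-fold change (log2 1.74, SE 0.38, edgeR adjusted p = 0.000142). YBX1 went from 1.14 in the input to 3.42 and 3.71 (log2 1.62, SE 0.32, edgeR adjusted p = 1.47e-05). KHSRP went from 0.55 to 1.37 and 1.91 (log2 1.51, SE 0.30, edgeR adjusted p = 2.33e-05). In these 3 genes, and also in SYNCRIP and MSI2, each IP library lay above the input by more than a log2 ratio of 1.

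SYNCRIP went from 0.379 coding reads per 3'UTR read in the input to 0.903 and 1.21 in the IP libraries (log2 1.44, SE 0.30, edgeR adjusted p = 4.5e-05). MSI2 (log2 1.34), UPF1 (1.01) and ELAVL1 (0.97) passed with edgeR adjusted p of 0.0284, 0.0356 and 0.0336. DESeq2 did not call these last 3 (adjusted p = 0.136, 0.17 and 0.159), which left 4 of 9 beside 9.84% of all genes, whereas the fit with at least 30 reads in each region called 6 of the 7 genes it tested, beside 43.3% of all genes. FXR1 had 2.59 and 2.06 in the IP and 1.84 in the input (log2 0.37, SE 0.33, edgeR adjusted p = 0.395). IGF2BP3 had 0.674 and 0.565 in the IP and 0.49 in the input (log2 0.39, SE 0.55, edgeR adjusted p = 0.611). FXR1 and IGF2BP3 were also the genes with a called rise in the 3'UTR. The ratio is built from the same 3'UTR reads, so these results are not independent.

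**Figure D4:**
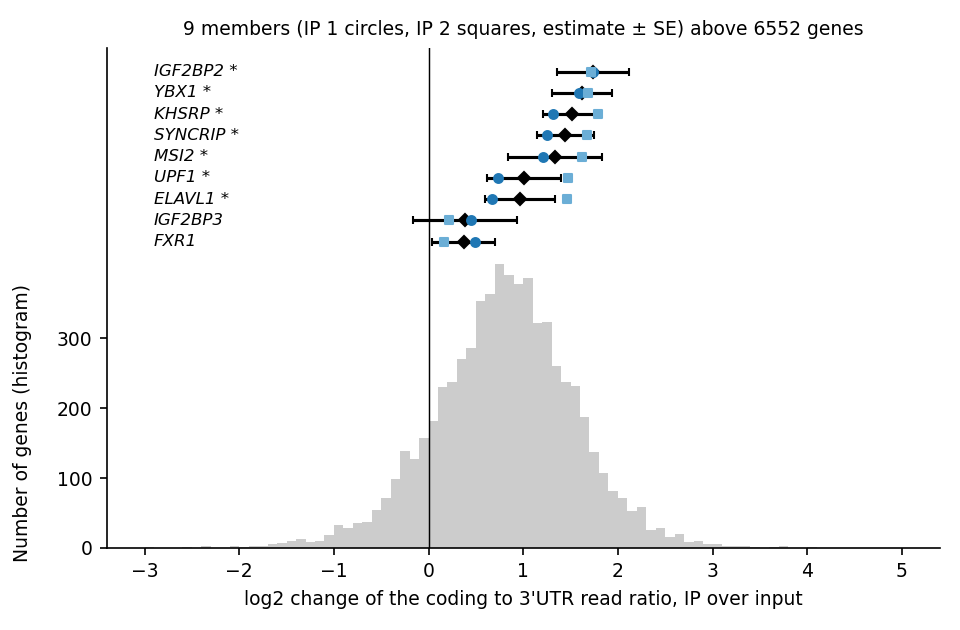
Log2 change of the coding to 3'UTR read ratio, IP over input (x axis), for the 9 mRNAs above a grey histogram of 6552 genes (y axis, number of genes). Circles and squares are IP replicates 1 and 2, diamonds the estimate with its SE, and stars an adjusted p under 0.05. IGF2BP2 lies highest at 1.74, and FXR1 (0.37) and IGF2BP3 (0.39) lie below the median gene (0.82).

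Peaks lay along the coding sequence of SYNCRIP and FXR1, and SYNCRIP also had significant peaks in its 5'UTR. The authors' lists, 1 for each IP library, give every peak a log2 fold over the input and a -log10 p of their own, and a peak was counted as significant here with both at 3 or more. The 9 genes had 245 peaks in the list of IP replicate 1 and 119 in that of IP replicate 2, of which 15 (6.12%) and 10 (8.40%) were significant, beside 11.5% and 12.9% of all peaks in those lists. At least 1 significant peak was found in 3 of the 9 genes in IP replicate 1 (ELAVL1, FXR1 and SYNCRIP) and in 5 in IP replicate 2 (also IGF2BP2 and IGF2BP3), beside 26.6% and 31.7% of all genes with a peak. A stricter limit (-log10 p of 5 and log2 fold of 4) left 0 of the 245 and 119 peaks, and so 0 of the 9 genes, beside 2.40% and 2.34% of all peaks. The share of all genes with a peak at that limit was not computed. Of the 245 and 119 peaks, 81 (IP replicate 1) and 65 (IP replicate 2) overlapped a peak of the other list by at least 1 base on the same strand. SYNCRIP (38 and 28) and FXR1 (22 and 17) held most of these, while IGF2BP2 had 2 and 2 and IGF2BP3 had 0 and 0. The share of all peaks in the lists that overlap was not computed.

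SYNCRIP had 46 peaks in IP replicate 1 (35 coding, 7 3'UTR, 3 5'UTR and 1 intronic) and 31 in IP replicate 2 (25 coding, 3 3'UTR and 3 5'UTR). Of these 45 and 21 had a -log10 p of at least 3, and the median log2 folds of all its peaks were 2.13 and 2.21. The significant ones numbered 8 and 4. SYNCRIP alone of the 9 had entries in the authors' list of 1587 reproducible peaks, and the share of all genes with an entry was not computed. In that list SYNCRIP's 7 entries formed 3 unbroken sites on the minus strand of chromosome 6 (hg19). The first spanned 201 bases of the 5'UTR, chr6:86352516-86352716, with log2 folds of 3.19, 3.81 and 3.89 in its 3 entries. The others lay in coding sequence, 62 bases at chr6:86351083-86351144 (log2 fold 3.66) and 79 bases at chr6:86346775-86346853 (up to 3.38). All 3 sites overlapped significant peaks of IP replicate 1, and the first 2 also those of IP replicate 2, which had further significant SYNCRIP peaks at chr6:86346961-86346985 (coding) and chr6:86352965-86352992 (5'UTR), each at a log2 fold of 3.23. Another annotated gene, ENSG00000271793.1, overlaps 17 of the SYNCRIP peaks, and its own reads (241, 53 and 652) were all assigned to its intron. The rule that assigned reads in that overlap is not known.

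FXR1 carried its peaks along the coding sequence. It had 32 coding and 5 3'UTR peaks in IP replicate 1, all 37 with a log2 fold above 0 and 36 with a -log10 p of at least 3, and 20 peaks in IP replicate 2, again all above 0 but 6 with a -log10 p of at least 3. Its highest significant peaks were in coding sequence, at chr3:180630460-180630524 in IP replicate 1 (log2 fold 3.95) and chr3:180693134-180693170 in IP replicate 2 (3.45), both on the plus strand. Only the former overlapped a peak of the other list, and no FXR1 peak was significant in both lists. YBX1 had no significant peak, and its 5'UTR peaks stood at log2 folds of 2.56 and 1.86. In IGF2BP2 most IP replicate 1 peaks were intronic, with 33 of its 48 peaks in introns and 25 of 48 above 0. UPF1, MSI2 and KHSRP had no significant peak in either list.

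ELAVL1, IGF2BP2 and IGF2BP3 had few significant peaks, and, as for FXR1, none was significant in both lists. ELAVL1 had a 3'UTR peak in IP replicate 1 (chr19:8026530-8026546, log2 fold 3.01) and, in IP replicate 2, a coding peak (chr19:8056617-8056682, 3.81) and another 3'UTR peak (chr19:8026060-8026102, 3.23), all on the minus strand. The coding peak overlapped an IP replicate 1 peak that did not reach the limits. In IP replicate 2 IGF2BP2 had a coding peak (chr3:185369900-185369954, 3.64) and IGF2BP3 an intron peak (chr7:23454738-23454793, 3.96, with a -log10 p of 3.08). Neither overlapped a peak of IP replicate 1.

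**Figure D5:**
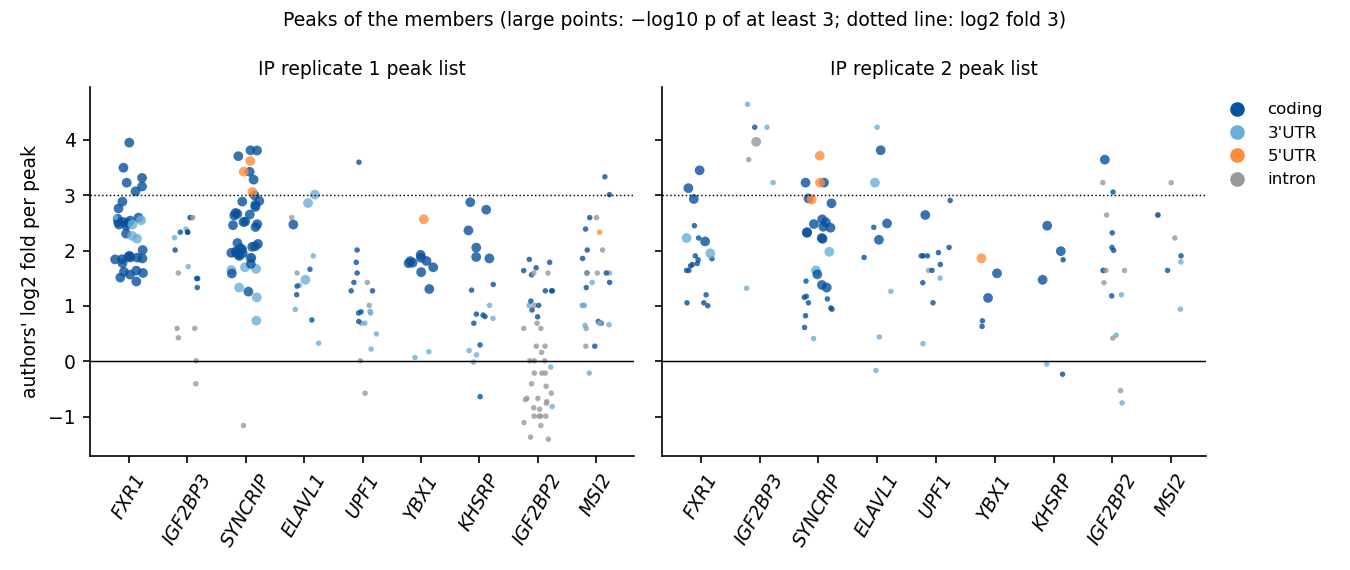
The authors' log2 fold of each peak in the 9 mRNAs (y axis), by gene and transcript region, in the lists of IP replicate 1 (left) and IP replicate 2 (right). Large points have a -log10 p of at least 3 and the dotted line marks a log2 fold of 3. SYNCRIP has the most significant peaks in each list (8 and 4, left and right). FXR1 has 6 and 2 and ELAVL1 has 1 and 2, and intron peaks of IGF2BP2 fall to -1.41.

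Relatives and partners of the 9 proteins numbered 48, of which 39 were tested by exonic reads. Of these 3 were higher and 6 lower, beside 16.7% and 11.4% of all genes, with a median log2 fold of -0.20. With library-size scaling 30 were higher and 0 lower, beside 68.3% and 1.32% of all genes. The folds of FUBP1 (0.24) and HNRNPAB (0.41) then turned positive while that of CELF2 did not (-0.13). DESeq2 called 0 higher and 1 lower, beside 6.53% and 2.46% of all genes. The highest called were STAU1 (0.84), whose protein binds double-stranded mRNA regions and works with UPF1, the decay factor UPF2 (0.83) and the poly(A)-associated factor LARP4 (0.80). The lowest were CELF2 (-1.38), a splicing and stability factor, the KHSRP relative FUBP1 (-1.01) and HNRNPAB (-0.85). UPF2 and UPF1 bind each other in nonsense-mediated decay, and their exonic log2 folds were 0.83 and -0.16. Of the paralogs FXR2 (-0.12), FMR1 (0.63) and YBX3 (-0.58) did not pass, while HNRNPR was called lower (-0.61, edgeR adjusted p = 0.0406). These paralogs were named after their values were seen. Among the relatives and partners the coding to 3'UTR ratio was called higher in 21 of the 37 genes tested, with a median log2 change of 1.20, beside 29.7% and 0.82 for all genes. IGF2BP1, MSI1, ELAVL2, ELAVL3, ELAVL4, YBX2 and LIN28B had at most 7 exonic reads in any library and were not tested, and SMG8 and RBM8A matched no row.

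Reads of processed copies could blur 2 members. YBX1 has 4 pseudogenes with rows in the tables, which together held 22, 5 and 7 reads beside 1043, 195 and 1515 for YBX1 itself. KHSRP has 1, with 3, 2 and 2 reads. The assignment of reads that match several copies is not stated, so the YBX1 values carry that uncertainty.

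Profiles over coding sequence, 3'UTR and introns were compared by Euclidean distance over 6 log2 folds (3 regions in 2 IP libraries) among 5950 genes. Among the 9, MSI2 and UPF1 (0.85), IGF2BP2 and YBX1 (0.85) and IGF2BP3 and FXR1 (0.92) lay closest, and KHSRP and FXR1 farthest apart (3.61). The nearest gene of all was ING5 for MSI2 (0.15), PSMB7 for IGF2BP2 (0.36), CNOT6 for IGF2BP3 (0.30), CTDSP2 for ELAVL1 (0.32), ALDOA for KHSRP (0.25), DENR for YBX1 (0.37), RIOK1 for FXR1 (0.27), CAPZA1 for SYNCRIP (0.26) and ILF2 for UPF1 (0.36). Median distances to all genes were 1.81 to 2.66. The 6 values share the 1 input library, so these distances are a description.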

How the data were processed

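The submitters' processing notes name genome build hg19 and the tools STAR, SAMtools, cutadapt and UMI-tools. Versions, the counter, the peak caller and the strand setting are not given in the sources used. For each library the authors deposited a table of unnormalized counts by gene and region, and for each IP library peaks with a -log10 p and a log2 fold; the reproducible list carries the same measures, and how it was combined is not known. Lines of totals and intergenic reads (4.05%, 3.78% and 2.63% of IP replicate 1, IP replicate 2 and input) were left out of fits. Symbols came from a name table that matched 28576 of 29754 Ensembl identifiers.

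Exonic sums and region counts with at least 10 reads in at least 2 libraries went through edgeR 4.0.16 (R 4.3.3; TMM, glmQLFit, glmQLFTest), with 1 residual degree of freedom from the IP libraries, so that the input is taken to spread as they do. Common dispersion was 0.0272 for exonic sums and 0.0356 for regions. The median prior degrees of freedom, the weight of the spread pooled over all features, were 75.8 for exonic sums and infinite for regions. Folds per IP library used a prior count of 2. The coding to 3'UTR fit, chosen after the data were seen, had terms for library, region and the interaction of region with IP. It needed 10 reads in 2 libraries in both regions. Its ratios per IP library added 0.5 reads. Alternatives were DESeq2 1.42.0, library-size scaling, other read filters and other read sums. Fits were tested on simulated data. Members and lists were chosen with earlier results of these data known. Genes named beyond the members were the 3 highest and 3 lowest called relatives, the nearest gene of each member and some paralogs. Of the peaks, the highest significant one per gene and list was named. Coordinates are 1-based. Some markers of other lineages are not reported here.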

Additional observations from a re-analysis of the deposited data

How the results depend on the processing

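Scaling decided the direction of most exonic folds. Library-size scaling raised the median gene by 1.26 log2, called 6 members higher (68.3% of all genes) and 0 lower (0 at an unadjusted p under 0.05), and reversed IGF2BP2 (0.55), MSI2 (0.39), KHSRP (0.61), YBX1 (0.89) and UPF1 (1.09), and the 3'UTRs of MSI2 (0.082) and UPF1 (0.45). It called 4 3'UTRs higher and 0 lower. DESeq2 called 0 higher and 0 lower by exonic reads (1 and 0 at an unadjusted p under 0.05). It called higher 2 coding regions (26.9% of all), 1 3'UTR (10.5%), 1 5'UTR (12.6%) and 4 ratios (9.84%), and 0 3'UTRs lower (0.945%). A filter of 1 read called 0 and 0 by exonic reads (1 and 3 unadjusted). It called higher 3 coding regions (20.0% of all), 1 3'UTR (7.83%) and 1 5'UTR (6.19%). Lower calls in the 3'UTR stayed at 3 (5.48% of all), and the SYNCRIP 3'UTR turned to -0.16. A filter of 30 reads turned ELAVL1 to -0.031. Adding intronic reads called 0 higher (2 at an unadjusted p under 0.05) and 3 lower, beside 19.6% and 18.6% of all genes. It reversed IGF2BP3 (-1.10) and KHSRP (0.32). Coding and 3'UTR reads alone changed no exonic call. At -log10 p of 5 and log2 fold of 4, significant peaks numbered 0 and 0 in the members (2.40% and 2.34% of all peaks passed). At 3 and 1 they made up 40.8% and 33.6% of member peaks against 34.3% and 23.9% of all peaks. They lay in 5 and 8 members, and the shares of all genes at these limits were not computed.

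With 1 IP library left out there was no residual degree of freedom and no test. Then the exonic log2 fold ran from -0.013 (without IP replicate 2) to 0.070 (without IP replicate 1) for ELAVL1, from -0.030 (without IP replicate 1) to 0.33 (without IP replicate 2) for SYNCRIP, and from -0.42 (without IP replicate 2) to 0.086 (without IP replicate 1) for UPF1. The SYNCRIP 3'UTR ran from -0.22 (without IP replicate 1) to 0.41 (without IP replicate 2). The other 6 members kept their exonic direction. No paired analysis was possible because the 1 input library carries no replicate number. Depth limits IGF2BP3 and MSI2 most, with 13 coding reads each in IP replicate 2.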
